A study of Arabidopsis thaliana with 6 samples.

Results

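The GROWTH-REGULATING FACTOR genes *GRF1* to *GRF9* and the coactivator gene *GIF1*, also known as *ANGUSTIFOLIA3* (*AN3*), were examined in seedlings of *Arabidopsis thaliana*. The 10 genes were chosen by name from the gene family, with earlier results of these data known. They were read by their AGI identifiers from tables of 37184 identifiers. All 10 were found and passed the filter on low counts, which left 21705 genes for testing. The data were RNA-seq counts of 14-day-old seedlings, 3 libraries of the *nol12-4* mutant and 3 of wild type (WT). The mutant carries a T-DNA insertion from the GABI-Kat collection in *AtNOL12* (AT1G11240), which encodes a nucleolar protein related to the yeast exonuclease Rrp17, and it was represented by this single insertion line. Both genotypes were in the Columbia-0 background and were grown on MS medium with sucrose under long days. Whole seedlings were used, so each library mixes leaves, shoot apex, hypocotyl and root. The study described altered leaves in the mutant, and the question addressed here is how the genes of this leaf growth module were expressed in it.

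GRF proteins are plant-specific transcription factors that bind DNA through a WRC domain and bind their coactivators, the GIF proteins, through a QLQ domain. GIF proteins have no DNA-binding domain of their own and link GRF factors to SWI/SNF chromatin remodelling complexes. Together they sustain cell proliferation in young leaf primordia. Arabidopsis plants without *GIF1* form narrow leaves with fewer cells. The microRNA miR396 cleaves most GRF transcripts and restricts them to the youngest part of the leaf, and TCP transcription factors such as TCP4 promote *MIR396* expression as leaf cells leave the division phase.

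The miR396 site is shown because it divides the family into transcripts that the microRNA can pair with and transcripts that lack the site. Mature miR396a-5p is encoded on the minus strand at chr2:4142443-4142463 and miR396b-5p on the plus strand at chr5:13611808-13611828 (TAIR10.1, RefSeq annotation). Both are 21 bases long and differ in the last base. They are printed 5′ to 3′ with the seed, bases 2 to 8, in capitals.
miR396a-5p: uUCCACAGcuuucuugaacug
miR396b-5p: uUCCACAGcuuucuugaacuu

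The reverse complement of miR396 was searched in 48265 annotated transcripts of 27562 protein-coding genes. The search returned 7 genes within 2 edits (mismatches or single-base gaps), 0.0254% of all protein-coding genes, and all 7 were members of the GRF family. A limit of 3 edits, the main one used, returned 49 genes (0.178%) and a limit of 4 edits 641 genes (2.33%), with the same 7 GRF genes at each limit. *GRF5*, *GRF6* and *GIF1* had no stretch closer than 6 edits. Each site lay in the coding sequence, in exon 3 of 4 in *GRF1* to *GRF4*, exon 2 of 3 in *GRF7* and *GRF9*, and exon 5 of 6 in the matched transcript model of *GRF8*. The 22-base windows, printed 5′ to 3′ on the transcript strand, lie at chr2:9729944-9729965 (plus strand) in *GRF1*, chr4:17726404-17726425 (minus) in *GRF2*, chr2:15271745-15271766 (minus) in *GRF3*, chr3:19617293-19617314 (minus) in *GRF4*, chr5:21795145-21795166 (plus) in *GRF7*, chr4:12538649-12538670 (plus) in *GRF8* and chr2:18746292-18746313 (plus) in *GRF9*. Capitals mark the unbroken run complementary to the microRNA from base 2, which extended to base 8 in *GRF1* to *GRF4* and to base 7 in *GRF7* to *GRF9*.
GRF1: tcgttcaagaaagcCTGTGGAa
GRF2: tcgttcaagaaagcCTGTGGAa
GRF3: ccgttcaagaaagcCTGTGGAa
GRF4: ccgttcaagaaagcCTGTGGAa
GRF7: tcgttcaagaaagcaTGTGGAa
GRF8: tcgttcaagaaagcaTGTGGAa
GRF9: acgttcaagaaagctTGTGGAa
A match of this kind is a description of the sequence. Mature microRNAs were not measured in these libraries.

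Gene counts summed to 56627497 to 74162060 in *nol12-4* and 67444306 to 75001252 in WT. Genes of the chloroplast and mitochondrial genomes took 47.05 to 53.36% of them in *nol12-4* and 50.77 to 56.58% in WT. WT replicate 3 stood apart from the other WT libraries, with 13.5% of the tested genes at least 2-fold away from their mean, against 3.78 and 4.22% for WT replicates 1 and 2. In *nol12-4*, replicates 1 and 2 stood at 4.33 and 5.07% and replicate 3 at 8.81%. *nol12-4* replicate 3 also differed from its group in clock genes. *CCA1*, a morning clock gene, had 96.8, 94.1 and 2.44 CPM in *nol12-4* and 1.1, 1.53 and 3.52 CPM in WT, and *LHY* and *PRR9* followed the same pattern. *TOC1* ran the other way, with 14.7, 13.1 and 120 CPM in *nol12-4* and 130, 126 and 141 CPM in WT. Without *nol12-4* replicate 3 edgeR called 7 of the 9 clock genes, in a fit that called 1639 of 22033 tested genes. WT replicate 3 departed from its group at *PRR7* (31.3, 31.6 and 121 CPM in WT), *PRR5* (28.0, 30.0 and 82.0) and *GI* (51.3, 48.6 and 113), but not at *LHY* or *TOC1*. *AtNOL12* itself had 1186, 770 and 2142 counts in the libraries labelled *nol12*, which the study describes as *nol12-4*, and 663, 642 and 894 in WT. This count sums reads on both sides of the insertion, so it cannot check the labels. The study chose this line after a northern blot of *AtNOL12* mRNA. The name *nol12-4* stands below for the libraries labelled *nol12*.

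None of the 10 genes was called different between the genotypes by edgeR's quasi-likelihood test at an adjusted p of 0.05, and all directions below are therefore estimates. Over all tested genes edgeR called 64 (0.295%), 49 higher and 15 lower in *nol12-4*, or 427 (376 higher and 51 lower) when library size alone replaced TMM scaling. With a library left out it called 1639 without *nol12-4* replicate 3, 464 without WT replicate 3 and 0 without any of the other 4. At an unadjusted p under 0.05, edgeR returned 2 of the 10, *GRF4* with a higher and *GRF5* with a lower estimate, against a background of 20.0% of all tested genes (12.1% with a higher and 7.91% with a lower estimate). That count was 1 to 3 with a library left out: *GRF5* dropped out without WT replicate 3 or *nol12-4* replicate 1 or 2, *GRF4* dropped out without WT replicate 1, and *GRF6* was added without WT replicate 2. With library size alone in place of TMM the 2 genes were *GRF4* and *GRF9* (edgeR unadjusted p = 0.00728 and 0.0473), both higher, and *GRF5* was at 0.057. The genotypes did not overlap at 4 of the 10 genes, against 26.1% of all tested genes. At *GRF4* and *GRF9* every *nol12-4* library lay above every WT library, a pattern held by 14.5% of tested genes, and at *GRF5* and *GRF7* every *nol12-4* library lay below, as at 11.6% of tested genes. DESeq2, the tool of the original study, called 1 of the 10, *GRF4*, against 9.42% of the 24147 genes to which it gave an adjusted p (6.20% higher and 3.21% lower). In whole seedlings a lower count of cells of a type and less RNA per cell cannot be told apart. The study prepared 3 biological replicates per genotype, but neither it nor the labels say whether these were separate cultures. The p-values therefore measure only the spread between these libraries.

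**Figure D1:**
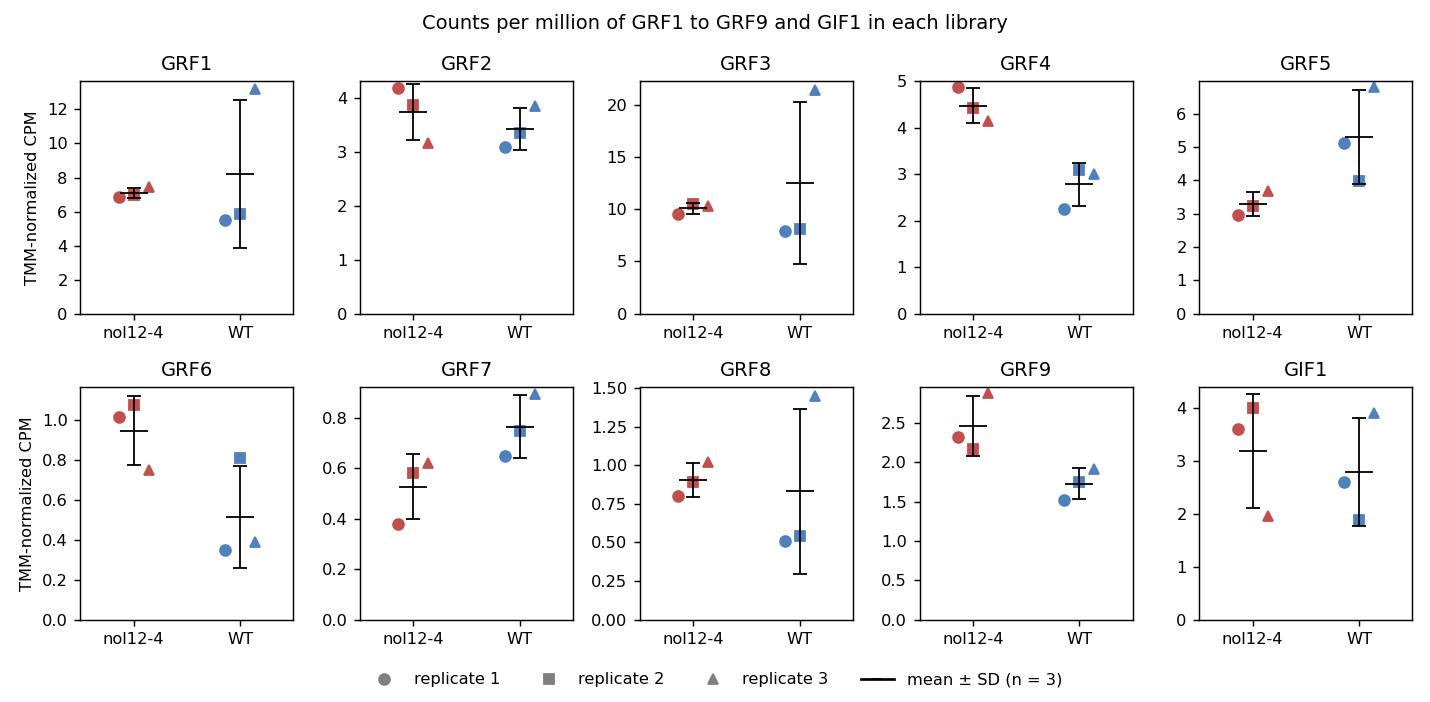
TMM-normalized CPM of each of the 10 genes in the 3 *nol12-4* libraries (red, left) and the 3 WT libraries (blue, right), with the replicate number given by the symbol and the mean and SD of each genotype in black. The genotypes are separate at GRF4, GRF5, GRF7 and GRF9, and WT replicate 3 lies at 13.2 CPM for GRF1 and 21.4 CPM for GRF3, far above the other WT libraries.

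*GRF1*, *GRF2* and *GRF3* act redundantly in leaf and cotyledon growth. *GRF3* (AT2G36400; chr2:15270088-15273115) had 9.51, 10.5 and 10.3 CPM in *nol12-4* and 7.94, 8.07 and 21.4 CPM in WT. All *nol12-4* libraries thus stood above WT replicates 1 and 2 and below WT replicate 3, which was 2.68 times the mean of the other WT libraries. The log2 fold change of *GRF3*, *nol12-4* over WT, was -0.30 ± 0.38 (SE; edgeR adjusted p = 0.69), and it was 0.33 ± 0.15 (edgeR adjusted p = 0.242) without WT replicate 3. The sign of the *GRF3* difference therefore rested on 1 library.

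*GRF1* (AT2G22840; chr2:9728480-9731301) followed the same pattern, with 6.85, 6.96 and 7.42 CPM in *nol12-4* and 5.49, 5.86 and 13.2 CPM in WT. Its libraries of the mutant spanned a narrow range that fell between the lower WT libraries and WT replicate 3. For *GRF1* the log2 fold change was -0.21 ± 0.34 (edgeR adjusted p = 0.762), and 0.32 ± 0.16 (edgeR adjusted p = 0.299) without WT replicate 3. *GRF2* (AT4G37740; chr4:17725337-17727909) did not share the peak in WT replicate 3. It had 4.17, 3.86 and 3.17 CPM in *nol12-4* and 3.08, 3.34 and 3.85 CPM in WT, with a log2 fold change of 0.12 ± 0.21 (edgeR adjusted p = 0.767). At *GRF2*, *nol12-4* replicates 1 and 2 lay above all WT libraries and *nol12-4* replicate 3 lay within the WT range.

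*GRF4* (AT3G52910; chr3:19615977-19618507) takes part in cotyledon and leaf growth and holds the same miR396 window as *GRF3*, base for base. It had 359, 259 and 320 counts in *nol12-4* and 160, 207 and 201 in WT, or 4.88, 4.43 and 4.14 CPM in *nol12-4* and 2.25, 3.10 and 3.0 CPM in WT. The lowest mutant library thus lay above the highest WT library. The means were 4.48 ± 0.37 CPM in *nol12-4* and 2.78 ± 0.46 CPM in WT (SD, n = 3 each), a 1.61-fold difference. The log2 fold change was 0.69 ± 0.21, with an edgeR adjusted p of 0.143 (unadjusted p = 0.0127). DESeq2 placed *GRF4* just past the threshold (log2 fold change 0.68, adjusted p = 0.0486). That call was present without WT replicate 3 (DESeq2 adjusted p = 0.047) and was lost when any of the other 5 libraries was left out.

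*GRF5* and *GRF6* are the GRF genes without a miR396 site. *GRF5* (AT3G13960; chr3:4608076-4610497), whose overexpression enlarges leaves through more cell divisions, had 217, 189 and 284 counts in *nol12-4* and 363, 266 and 455 in WT. In CPM these were 2.95, 3.23 and 3.67 in *nol12-4* and 5.11, 3.98 and 6.79 in WT, so that every mutant library lay below every WT library. The means were 3.28 ± 0.37 CPM in *nol12-4* and 5.29 ± 1.41 CPM in WT (SD, n = 3 each). For *GRF5* the log2 fold change was -0.69 ± 0.24, with an edgeR adjusted p of 0.18 (unadjusted p = 0.0235) and a DESeq2 adjusted p of 0.0951. DESeq2 called *GRF5* when WT replicate 2, the WT library nearest to the mutant, was left out (adjusted p = 0.0409). Without WT replicate 3 the edgeR estimate was -0.47 ± 0.22 (adjusted p = 0.263).

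*GRF6* (AT2G06200; chr2:2426176-2427355) was among the weakly expressed members, with 75, 63 and 58 counts in *nol12-4* and 25, 54 and 26 in WT. In CPM it had 1.02, 1.08 and 0.75 in *nol12-4* and 0.352, 0.809 and 0.388 in WT, and WT replicate 2 reached into the range of the mutant. *GRF6* had the highest log2 fold change among the 10 genes, 0.88, and one of the widest errors, 0.43 (edgeR adjusted p = 0.309). The GRF genes without a site thus had estimates of opposite sign, and so did the 7 with a site, of which 4 were above 0 and 3 below, with a median log2 fold change of 0.12. That median rested on single libraries: it was 0.33 without WT replicate 3, with 6 of the 7 above 0, and -0.14 and -0.11 without WT replicate 1 and 2, with 3 of the 7 above 0. Over all 10 genes the median was also 0.12, at 0.42 without WT replicate 3, -0.04 and -0.07 without WT replicate 1 and 2, and 0.06 and 0.05 without *nol12-4* replicate 1 and 2.

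*GRF9* (AT2G45480; chr2:18745249-18747634), reported to restrict leaf growth, had 2.32, 2.17 and 2.88 CPM in *nol12-4* and 1.52, 1.75 and 1.91 CPM in WT. The mutant libraries lay above WT without overlap. Its log2 fold change was 0.51 ± 0.24 (edgeR adjusted p = 0.288). *GRF7* (AT5G53660; chr5:21794177-21796092), known as a repressor of the drought response gene *DREB2A*, lay in the opposite direction. It had 28, 34 and 48 counts in *nol12-4* and 46, 50 and 60 in WT, the lowest counts of the family together with *GRF6* and *GRF8*. The log2 fold change of *GRF7* was -0.53 ± 0.37 (edgeR adjusted p = 0.451), and the 48 counts of the highest mutant library exceeded the 46 of the lowest WT library before scaling for depth. The corresponding values were 0.381, 0.581 and 0.621 CPM in *nol12-4* and 0.648, 0.749 and 0.895 CPM in WT, so the separation at *GRF7* was narrow.

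*GRF8* (AT4G24150; chr4:12535972-12539576) resembled *GRF1* and *GRF3* in its peak in WT replicate 3, with 0.802, 0.889 and 1.02 CPM in *nol12-4* and 0.507, 0.539 and 1.45 CPM in WT. The mutant libraries again fell between WT replicates 1 and 2 and WT replicate 3. *GRF8* had a log2 fold change of 0.12 ± 0.47 (edgeR adjusted p = 0.909), and 0.79 ± 0.34 (edgeR adjusted p = 0.239) without WT replicate 3. Leaving out WT replicate 1 or 2 instead turned the sign, to -0.14 and -0.11.

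*GIF1* (AT5G28640; chr5:10647467-10650066), the coactivator, varied more among replicates of one genotype than between the genotypes. It had 265, 233 and 151 counts in *nol12-4* and 184, 125 and 261 in WT, or 3.6, 3.98 and 1.95 CPM in *nol12-4* and 2.59, 1.87 and 3.89 CPM in WT. The ranges of the genotypes nearly coincided, with *nol12-4* replicate 3 near the lowest WT library and WT replicate 3 near the highest mutant library. The log2 fold change of *GIF1* was 0.19 ± 0.37 (edgeR adjusted p = 0.806). Without WT replicate 3 it was 0.51, and without WT replicate 2 or *nol12-4* replicate 2 it was -0.03 and -0.01. The libraries that departed at *GIF1* were those that stood apart over all genes.

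**Figure D2:**
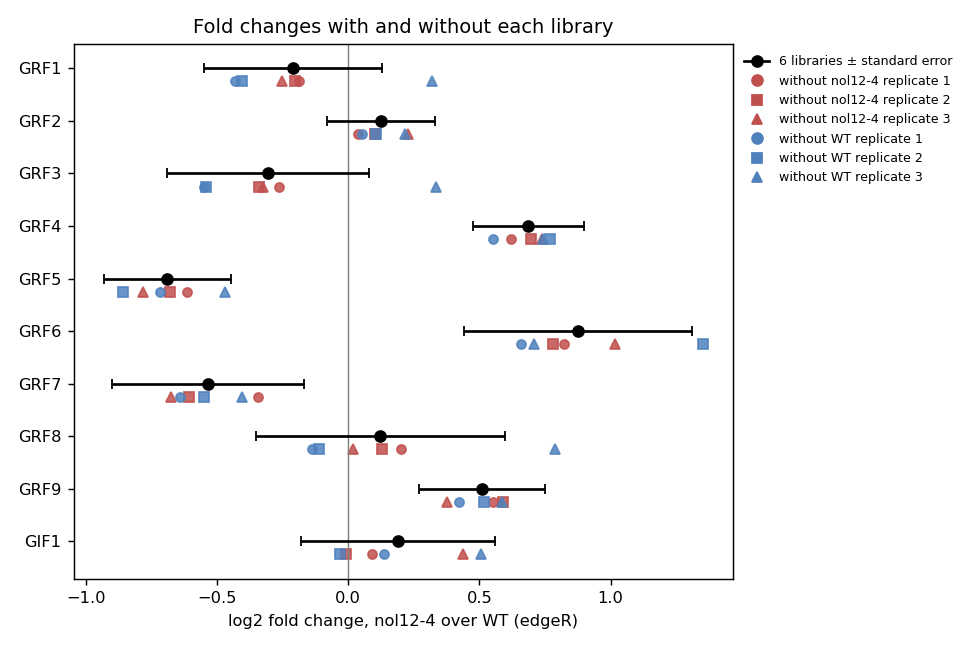
Log2 fold change of each gene, *nol12-4* over WT, from edgeR with 6 libraries (black, ± standard error) and with each library left out in turn (red symbols for a mutant library left out, blue for a WT library). The blue triangles, without WT replicate 3, lie at 0.32 for GRF1 and 0.33 for GRF3 on the other side of 0 from the black points, while GRF4, GRF6 and GRF9 stay above 0 and GRF5 and GRF7 below 0 in all fits shown.

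Levels were compared between genes as CPM per kb of exon. In *nol12-4* the order by mean was *GRF3* (5.30 ± 0.27), *GRF1* (3.35 ± 0.14), *GRF4* (2.83 ± 0.24), *GRF2* (1.78 ± 0.24), *GRF5* (1.66 ± 0.18), *GIF1* (1.31 ± 0.44), *GRF9* (1.26 ± 0.19), *GRF6* (0.869 ± 0.16), *GRF8* (0.437 ± 0.054) and *GRF7* (0.307 ± 0.075 CPM per kb, SD, n = 3). *GRF2*, *GRF5*, *GIF1* and *GRF9* formed a stretch in which neighbours overlapped, and the other neighbours were separate in all mutant libraries. In WT the order was *GRF3* (6.55 ± 4.06), *GRF1* (3.87 ± 2.06), *GRF5* (2.67 ± 0.71), *GRF4* (1.76 ± 0.29), *GRF2* (1.63 ± 0.18), *GIF1* (1.15 ± 0.42), *GRF9* (0.887 ± 0.10), *GRF6* (0.473 ± 0.23), *GRF7* (0.444 ± 0.072) and *GRF8* (0.402 ± 0.258 CPM per kb, SD, n = 3). Only *GRF5* and *GRF4*, and *GRF9* and *GRF6*, were neighbours without overlap in WT. By the length of the longest transcript *GIF1* stood at 1.82 in *nol12-4*, above *GRF2* and *GRF5*, and at 1.59 in WT. Both genotypes thus had *GRF3* and *GRF1* at the top and *GRF6*, *GRF7* and *GRF8* at the bottom.

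The genotypes differed in the order of *GRF4* and *GRF5*, a contrast picked after the values had been seen and given without a test. The ratio of the *GRF4* to the *GRF5* level per length was 2.07, 1.72 and 1.41 in *nol12-4* and 0.552, 0.975 and 0.553 in WT. *GRF4* exceeded *GRF5* in each mutant library and was below it in each WT library, although in WT replicate 2 the ratio was close to 1. This ratio is taken within a library and does not depend on how libraries are scaled to each other.

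The summed level of the 9 GRF genes was 17.5, 17.9 and 17.9 CPM per kb in *nol12-4* and 14.0, 14.9 and 27.2 CPM per kb in WT. The mutant libraries were nearly equal to each other and lay between WT replicates 1 and 2 and WT replicate 3. *GRF4* held 17.6, 15.6 and 14.6% of the sum in *nol12-4* and 10.2, 13.2 and 6.97% in WT. *GRF5* held 8.49, 9.10 and 10.35% in *nol12-4* and 18.5, 13.5 and 12.6% in WT. The shares of both genes were separate between the genotypes. The 7 genes with a miR396 site together held 86.2, 85.4 and 85.8% in *nol12-4* and 79.2, 81.5 and 86.1% in WT, so that WT replicate 3 lay within the range of the mutant in this share. *GRF1* and *GRF3* together held 47.0, 49.0 and 49.8% in *nol12-4* and 48.5, 47.0 and 64.3% in WT.

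**Figure D3:**
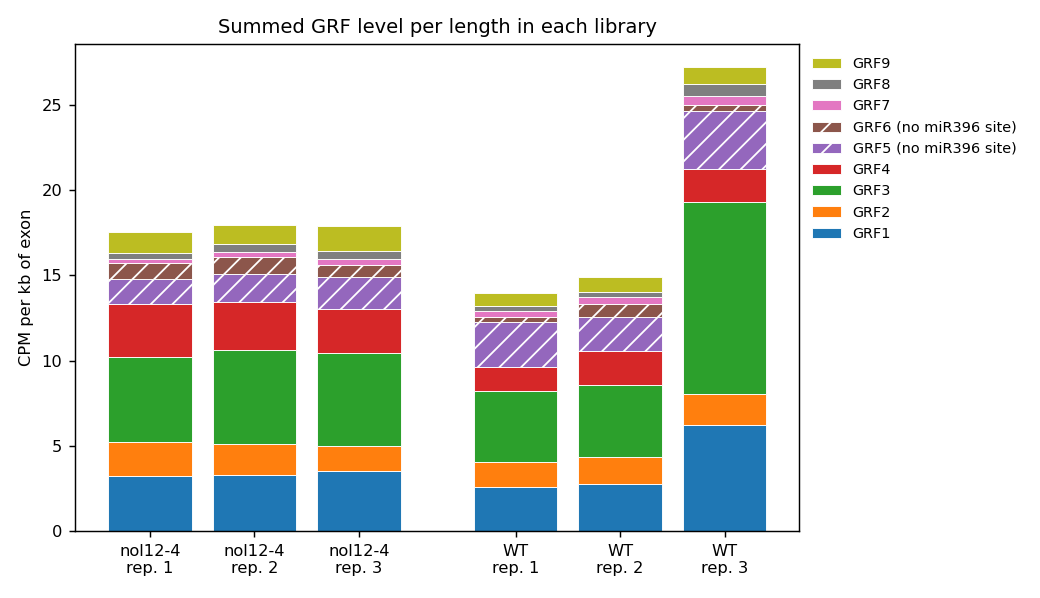
Summed level of GRF1 to GRF9 in CPM per kb of exon in each library, *nol12-4* on the left and WT on the right, with 1 colour per gene and hatching for GRF5 and GRF6, which lack a miR396 site. The sum is 17.5 to 17.9 in the mutant and 14.0, 14.9 and 27.2 in WT, where the tall bar of replicate 3 is mostly GRF3 and GRF1.

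Across the 6 libraries, log2 CPM of *GRF1* and *GRF3* had a Pearson r of 0.994, and of 0.957 in the 5 libraries without WT replicate 3. *GRF4* and *GRF5*, a pair picked after its values were seen, had an r of -0.786 (-0.977 without WT replicate 3). This was not particular to *GRF4*, since *GRF5* and *GRF6* had an r of -0.919 (-0.942 without WT replicate 3). *GRF1* and *GRF8* had one of 0.919 (0.991 without WT replicate 3). These are descriptions over libraries that share depth, genotype and growth conditions. Among 17638 genes with a mean of at least 1 CPM in both genotypes, the 3 with the highest r to *GRF3*, the GRF gene of the highest level per length, were *SPL3* (0.997), a regulator of the change from juvenile to adult growth, *LNG1* (0.997), a promoter of lengthwise organ growth, and *GRF1*. *SPL3* had 2.39, 2.80 and 2.85 CPM in *nol12-4* and 1.76, 1.99 and 7.76 CPM in WT, again with its peak in WT replicate 3. The 3 most like *GIF1* were AT1G27210 (r = 0.990), AT3G13061 (0.986) and *RBR1* (0.984), the retinoblastoma-related regulator of cell cycle entry. *RBR1* had 28.3, 30.2 and 22.1 CPM in *nol12-4* and 23.3, 21.1 and 30.7 CPM in WT, with the same high and low libraries as *GIF1*.

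Apart from the TCP genes, the partners and regulators of the module showed few differences. The other GIF coactivators, *GIF2* and *GIF3*, had log2 fold changes of 0.01 and -0.10. Neither these nor any of the 10 SWI/SNF subunit genes (median log2 fold change -0.05) or the 6 genes of the microRNA machinery (median -0.07, among them *DCL1* and *AGO1*) reached an unadjusted p of 0.05 in edgeR or was called by DESeq2, apart from the SWI/SNF gene *SWP73A* without WT replicate 3 or *nol12-4* replicate 1 (edgeR unadjusted p = 0.0488 and 0.0401), and the median over all tested genes was -0.01. Of the 5 TCP genes controlled by miR319, which act upstream of miR396, 3 reached an unadjusted p of 0.05, against 20.0% of all tested genes. With a library left out, *TCP24* was at that level in every fit and *TCP3* in all but the fit without WT replicate 2. *TCP10* was at that level only without WT replicate 3 or *nol12-4* replicate 3. *TCP24* had 32.6, 22.5 and 31.2 CPM in *nol12-4* and 45.6, 46.5 and 38.9 CPM in WT, without overlap (log2 fold change -0.60 ± 0.18, edgeR adjusted p = 0.135, DESeq2 adjusted p = 0.0469). *TCP3* had 8.59, 12.6 and 13.5 CPM in *nol12-4* and 15.8, 18.5 and 16.8 CPM in WT, also lower without overlap (log2 fold change -0.56, edgeR adjusted p = 0.175). *TCP10* had the opposite sign (0.68, edgeR adjusted p = 0.175), with overlapping genotypes. edgeR called *TCP10* without *nol12-4* replicate 3 (0.89, adjusted p = 0.0368), in a fit that called 1639 of 22033 tested genes. *TCP4* was at 0.11. The *MIR396A*, *MIR396B* and *MIR319A* loci were not analysed here.

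Genes reported downstream of GRF factors or *GIF1* were read as a list of 9, of which 8 were tested, 2 reached an unadjusted p of 0.05, a share near the 20.0% of all tested genes, and none was called by edgeR. Of the 8, 7 had an estimate above 0, against 10645 of 21705 tested genes, and 6 and 5 did so without WT replicate 1 and 2. The list median was 0.40, at 0.22 and 0.19 without WT replicate 1 and 2 and 0.15 without *nol12-4* replicate 2. The list was not sorted by the reported direction of control and includes *DREB2A*, which GRF7 represses, so its signs and median do not measure the output of the module. *ORG3*, a bHLH gene of the iron deficiency response that has been placed downstream of GRF9, had 28.9, 16.9 and 4.05 CPM in *nol12-4* and 0.831, 1.26 and 0.447 CPM in WT. The mutant libraries differed widely among themselves and still lay above WT without overlap. *ORG3* had a log2 fold change of 4.30 ± 0.75, with an edgeR adjusted p of 0.0618 and a DESeq2 adjusted p of 1.47e-09. *ARR4*, a cytokinin response regulator, had 17.6, 20.1 and 17.9 CPM in *nol12-4* and 9.82, 12.8 and 14.8 CPM in WT (log2 fold change 0.57 ± 0.18, edgeR adjusted p = 0.15). *DREB2A*, the target of GRF7, ran from 2.38 to 19.1 CPM in *nol12-4* and from 10.4 to 31.2 CPM in WT and overlapped between the genotypes. Without *nol12-4* replicate 3 edgeR called *ORG3* (log2 fold change 4.76, adjusted p = 0.00463) and *DREB2A* (-2.88, adjusted p = 0.0224), in a fit that called 1639 of 22033 tested genes.

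Among 17 other regulators of leaf size and width, 16 were tested, none was called by edgeR, and 3 reached an unadjusted p of 0.05, a share near the 20.0% of all tested genes. Without WT replicate 3 it was 8 of 17, 6 higher and 2 lower, and without WT replicate 2 or *nol12-4* replicate 3 it was 2 higher and 3 lower, or 3 and 3. Shares over all genes at that level in these fits are not given here. Without WT replicate 3 edgeR called 464 of 22170 tested genes. *ANT*, which prolongs cell proliferation in organs, had 16.5, 15.8 and 14.5 CPM in *nol12-4* and 8.37, 9.48 and 10.5 CPM in WT, with a log2 fold change of 0.72 ± 0.15 (edgeR adjusted p = 0.0738, DESeq2 adjusted p = 0.00414). *ARGOS*, which acts upstream of *ANT*, had 2.77, 2.70 and 2.30 CPM in *nol12-4* and 4.79, 4.10 and 4.30 CPM in WT, with a log2 fold change of -0.76 ± 0.19 (edgeR adjusted p = 0.101, DESeq2 adjusted p = 0.00833). *ANT* and *ARGOS*, both counted as promoters of organ size, thus separated the genotypes in opposite directions. *DA1*, a ubiquitin receptor that limits organ size, was lower without overlap (-0.62 ± 0.16, edgeR adjusted p = 0.106, DESeq2 adjusted p = 0.0211). Without *nol12-4* replicate 3 edgeR called *ANT* (adjusted p = 0.0434) and *DA1* (adjusted p = 0.0447), in a fit that called 1639 of 22033 tested genes. *ROT4*, a small peptide gene below the filter, had 49, 19 and 7 counts in *nol12-4* and 0, 4 and 0 in WT (DESeq2 adjusted p = 0.0239). It was named after its values were seen.

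**Figure D4:**
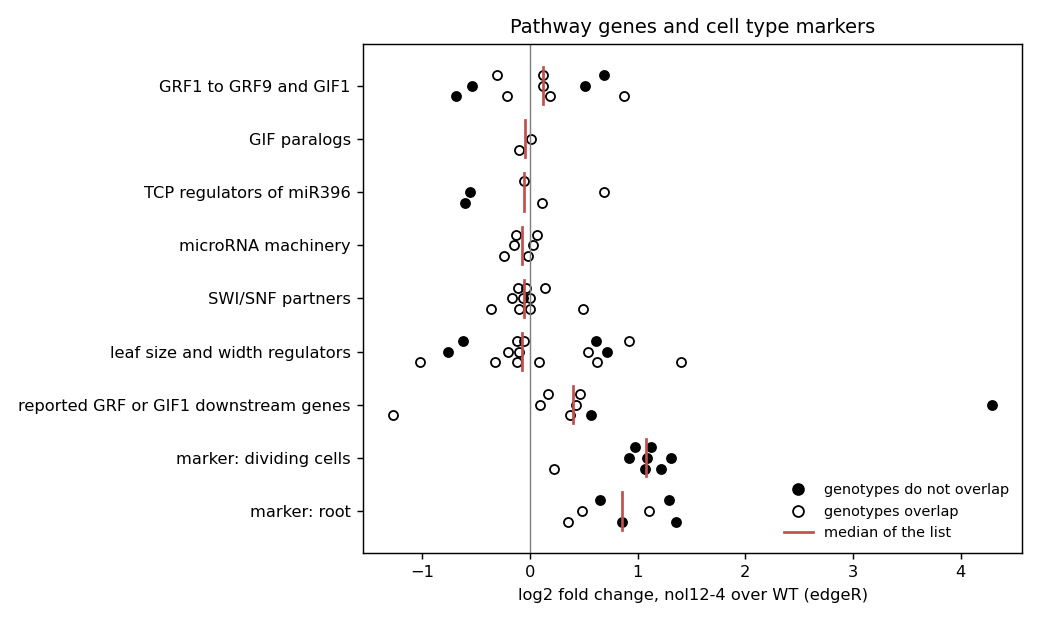
Log2 fold change, *nol12-4* over WT, of each tested gene in the GRF and GIF1 group, in lists of pathway genes and in markers of dividing cells and root, with filled points where the genotypes do not overlap and a red line at the list median. The markers of dividing cells have a median of 1.08 and those of root 0.86, the GRF and GIF1 genes one of 0.12 that becomes 0.42 without WT replicate 3, and the far right point is ORG3 at 4.30. The other marker lists, not drawn, have medians of 0.69 (shoot meristem), 0.56 (leaf mesophyll) and -0.53 (flower).

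Like all lists, the markers were chosen with earlier results of these data known, so their counts are descriptions. Markers of dividing cells were mostly higher in *nol12-4*. Their summed level was 99.2 to 111.0 CPM in *nol12-4* and 47.0 to 59.7 CPM in WT. Of the 8 markers, 7 reached an unadjusted p of 0.05 with a higher estimate (median log2 fold change 1.08), against 12.1% of all tested genes. That background of 12.1% also stands beside the other marker lists below. When any library was left out 7 of 8 did so again, in fits whose share over all genes is not given here. The 7 markers were the B-type cyclins *CYCB1;1* (1.22), *CYCB1;2* (0.98) and *CYCB1;4* (1.06), the mitotic kinase gene *CDKB2;1* (0.92), and *KN* (1.09), *HIK* (1.12) and *AUR1* (1.31), which act in cytokinesis and mitosis. edgeR called 1 of them, *KN*, the cytokinesis syntaxin, which rose to 24.4, 28.0 and 23.7 CPM in *nol12-4*, against 11.1, 12.1 and 12.5 CPM in WT (adjusted p = 0.0341). That count lay between 0 and 7 with a library left out. It was 7 without *nol12-4* replicate 3 and 3 without WT replicate 3, where edgeR called 1639 of 22033 and 464 of 22170 tested genes. DESeq2 called 7 of the 8, all higher, against 6.20% of all genes called higher. The 7 root markers summed to 14.1 to 17.1 CPM in *nol12-4* and 6.73 to 9.57 CPM in WT, with 3 at an unadjusted p of 0.05, the root hair genes *EXPA7* (log2 fold change 1.36) and *COBL9* (1.29) and the radial patterning gene *SHR* (0.65). The root median of 0.86 was 1.43 without WT replicate 2. *EXPA7* and *COBL9* stayed at an unadjusted p under 0.05 whichever library was left out, *SHR* only without WT replicate 3 or *nol12-4* replicate 1. The 5 leaf mesophyll markers summed to 9360 to 14700 CPM in *nol12-4* and 5850 to 9410 CPM in WT, so leaf tissue was present in all libraries, and *RBCS1A* (0.56) and *RCA* (1.30), genes of carbon fixation, were at an unadjusted p under 0.05. Shoot meristem markers summed to 2.87 to 3.78 CPM in *nol12-4* and 1.69 to 2.67 CPM in WT, with *WUS* at 0 counts in all libraries and *STM*, the meristem homeobox gene, at a log2 fold change of 0.69 (edgeR unadjusted p = 0.0415). The other tested meristem markers, *CUC1* (0.78) and *CUC2* (-0.49), differed in sign. With a library left out, *STM* was at an unadjusted p under 0.05 only without WT replicate 3, and *RBCS1A* only without *nol12-4* replicate 1 or 3. The sums of the flower markers overlapped, at 4.17 to 6.88 CPM in *nol12-4* and 4.49 to 7.19 CPM in WT. Below the filter, *AP1* was lower without overlap, with 1, 0 and 0 counts in *nol12-4* and 7, 17 and 6 in WT (DESeq2 adjusted p = 0.0348). *AP3* was higher without overlap, with 7, 10 and 10 counts in *nol12-4* and 0, 1 and 0 in WT (DESeq2 adjusted p = 0.042). The part of tissue composition and of the clock difference in the values of the GRF genes and *GIF1* was not tested.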

How the data were processed

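The authors depleted total RNA of 14-day-old seedlings of rRNA, made stranded paired-end libraries, aligned the reads with HISAT2 (version 2.0.4) to TAIR10 and counted read pairs per Araport11 gene by strand with HTSeq (version 0.6.0). The deposited values were raw counts per gene, 1 table per replicate. Summary lines (20.57 to 25.05% of a library) were left out. Because counting used strand, genes overlapping *GRF1*, *GRF3*, *GRF7* and *GRF9* on the opposite strand were counted apart.

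Differences between *nol12-4* and WT were tested by edgeR 4.0.16 under R 4.3.3, with TMM factors, filterByExpr, robust glmQLFit and the two-sided quasi-likelihood F test, genotype as the only term, and Benjamini-Hochberg adjustment over 21705 genes at 0.05. The SE of a log2 fold change was derived from the test, as its absolute value divided by the square root of the F statistic. The fit was repeated by DESeq2 1.42.0 and by voom from limma 3.58.1, and with other scaling factors, other filters, organelle genes left out, a replicate block and leaving out each library. DESeq2 with a library left out was added after seeing the data. The procedure was tested on simulated data. CPM used TMM-scaled library sizes, CPM per kb used the union of exons of the RefSeq annotation of TAIR10.1, and correlations used log2 CPM with a prior count of 2. A count of 3 corresponded to 0.0388 to 0.0513 TMM-scaled CPM in *nol12-4* and 0.0423 to 0.0449 in WT, and this floor covers counting error only.

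The 10 genes and all lists were chosen with earlier results of these data known. All 10 are named, as are list genes at an unadjusted p under 0.05 and the 3 genes most like *GIF1* and *GRF3*. Downstream, leaf size and marker genes were listed from general knowledge. miR396 and site sequences were read from the TAIR10.1 genome.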

Additional observations from a re-analysis of the deposited data

How the results depend on the processing

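Of 220 fold changes of the 10 genes under alternatives, 205 kept their direction and their side of the threshold, 12 changed sign and 3 passed the threshold. Without 1 library at a time the log2 fold change ran from -0.44 to 0.32 at *GRF1*, -0.56 to 0.33 at *GRF3*, -0.15 to 0.79 at *GRF8* and -0.044 to 0.51 at *GIF1* over edgeR and DESeq2 (in edgeR alone the lowest were -0.43, -0.55, -0.14 and -0.032). The sign changed without WT replicate 3 at *GRF1* (0.32 in edgeR, 0.32 in DESeq2) and *GRF3* (0.33 and 0.33), without WT replicate 1 (-0.14 and -0.15) or 2 (-0.11 and -0.13) at *GRF8*, and without WT replicate 2 (-0.032 and -0.044) or *nol12-4* replicate 2 (-0.0064 and -0.02) at *GIF1*. The causes were not tested. DESeq2 called 1 of the 10, and 0 to 1 with a library left out, *GRF4* without WT replicate 3 and *GRF5* without WT replicate 2. With a library left out edgeR called 0 of the 10. The 2 genes at an unadjusted edgeR p under 0.05 became 1 without WT replicate 1 (*GRF5*) and without WT replicate 3 or *nol12-4* replicate 1 or 2 (*GRF4*), and with library size alone they were *GRF4* and *GRF9*, both higher. Over all genes the count of 64 became 427 with library size alone, 183 with no filter on low counts and 2274 with DESeq2, and 0 to 1639 in edgeR and 851 to 3567 in DESeq2 with a library left out, the edgeR maximum without *nol12-4* replicate 3 and 464 without WT replicate 3. With the replicate number as a block edgeR called 1 gene and 0 of the 10. Same-numbered libraries deviated from their genotype means with correlations of 0.16, -0.11 and 0.03, and differently numbered ones with -0.24 to 0.20. These values gave no sign of pairing by number, but with 3 libraries per genotype they cannot exclude it. Leaving out organelle genes raised all levels per length, *GRF3* in WT to 13.8, and kept their order. Counts of 25 to 97 limited the precision at *GRF6*, *GRF7* and *GRF8*.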
